A study of Mus musculus with 12 samples.

Results

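The genes described here encode the proteins of the cytosolic ribosome. They were chosen by symbol (Rpl or Rps followed by a number, Rplp followed by a digit, and Rpsa) among protein-coding genes, and 84 of the 49315 genes in the count table fitted. Of these, 32 belong to the small subunit and 52 to the large one, and 77 are core genes while 7 are paralogs of a core gene (Rpl3l, Rpl7l1, Rpl10l, Rpl22l1, Rpl36al, Rpl39l and Rps27l). A further 6 symbols of the same form (Rps4l, Rps12l1, Rpl32l, Rpl6l, Rps3a2 and Rps3a3) were not annotated as protein-coding and were left out. The ribosome proteins encoded by Fau and Rack1 carry other names and are given with the rest of the translation genes.

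RNA was sequenced from 12 mouse libraries of strain C57BL/6, 3 in each of 4 groups: group 2 innate lymphoid cells (ILC2s) cultured alone, ILC2s in coculture with eosinophils, eosinophils on their own, and eosinophils in coculture with ILC2s. ILC2s are lymphocytes resident in tissue that lack antigen receptors and release IL-5 and IL-13, and eosinophils are granulocytes that IL-5 keeps alive. The ILC2s came from lung, were expanded in IL-33, IL-25, IL-2 and IL-7 and were then held for 48 h in IL-2 and IL-7, so all ILC2 groups share that history. The eosinophils came from blood as the cells not retained on B220 and CD90 beads, and all had 24 h in IL-33. Both cell types were washed, kept for 24 h in medium without cytokines, and separated by flow cytometry. The treatment label of the eosinophil groups names IL-33, while the protocol places it before the wash. Nothing in the labels ties a replicate to its own culture or animal, so the p-values reflect the spread among these libraries alone, which may be technical.

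A ribosome holds a single copy of nearly all of its core proteins, the stalk proteins P1 and P2 being the known exceptions. The mRNAs of these genes commonly begin with a C followed by a run of pyrimidines, the 5′ terminal oligopyrimidine (TOP) tract, through which mTOR signalling sets how strongly they are translated. Lymphocytes are known to enlarge their ribosome pool when they are activated, whereas mature granulocytes are non-dividing cells with little protein synthesis.

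The libraries held 16769929 to 22928961 counts. Levels are given as CPM, the usual depth-scaled count, with TMM scaling over the 12 libraries, on which 3 counts are worth 0.105 to 0.201. Of the 84 genes, Rpl10l, a paralog known from the testis, had 0 counts in every library, which allows at most 3 counts each, and Rpl39l had 0 to 21. The marker sums that follow use library totals alone, without the TMM factors, and so differ in scale from the other CPM values here. The factors left out were 1.24 to 1.26 in ILC2s alone, 1.11 to 1.12 with eosinophils, and 0.82 to 0.85 in the eosinophil groups. The 10 eosinophil markers summed to 6888 to 7256 CPM in eosinophils alone and 9652 to 9853 CPM with ILC2s. In ILC2s they summed to 3.05 to 3.52 CPM alone (9 detected, Prg3 at 0) and 2.48 to 3.81 CPM with eosinophils (8 detected, Prg3 and Ear2 at 0). The 10 lymphoid and ILC2 markers, all detected in ILC2s, summed to 5903 to 5979 CPM in ILC2s alone and 4497 to 4587 CPM with eosinophils, 44.5 to 56.6 CPM in eosinophils alone and 66.8 to 74.6 CPM in eosinophils with ILC2s (Cd2 at 0). The 6 basophil and mast cell markers, all detected, summed to 183 to 209 CPM in eosinophils alone and 95.7 to 105 CPM with ILC2s. The 5 monocyte and macrophage markers summed to 1808 to 1970.5 CPM in eosinophils and to at most 4.31 CPM in ILC2s. The 6 erythroid markers summed to 15.4 to 19.8 CPM in ILC2s with eosinophils (5 detected, Hbb-bs at 0) and to at most 1.92 CPM in the other groups. Mitochondrial transcripts took 1.13% to 1.15% of counts in ILC2s alone and 1.56% to 1.65% with eosinophils. The part of these in the values below was not tested. In such bulk RNA, more cells of a type and more RNA per cell cannot be told apart.

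In ILC2s, ribosomal protein mRNAs were higher after culture with eosinophils across nearly the whole set. Of 82 tested genes, 78 rose, Rps27 fell and 3 did not pass the test, Rpl37a and Rpl39l among them, against a background of 36.8% of 14438 tested genes higher and 35.6% lower (edgeR quasi-likelihood F test, adjusted p under 0.05). The median log2 fold change was 0.56, a 1.47-fold difference, beside 0.00 over all genes tested. The 3 libraries with eosinophils lay above the 3 without them for 78 of the 82 genes (background 38%) and below them for Rps27 (background 36.9%), and 37 genes rose by more than 1.5-fold (background 22.8%). With library totals in place of TMM the median of all genes shifted by -0.16 and that of the ribosomal protein genes was 0.40, with 76 higher and 2 lower, while over all genes the split went from 5315 higher and 5139 lower to 4385 and 6330.

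The rises were unequal. On the log2 scale 25 genes lay between 0.25 and 0.5, 38 between 0.5 and 1, and 12 above 1. Rps2, a small-subunit protein at the mRNA entry channel, stood apart. It lies on chromosome 17 from 24718116 to 24721929 (mm10, + strand). Its level was 542, 470.2 and 500.3 CPM in the ILC2 libraries alone and 1705, 1647 and 1709 CPM in those with eosinophils. The groups did not overlap, and the log2 fold change was 1.73 ± 0.04 (SE; edgeR adjusted p = 1.9e-24). Rps26, which lines the mRNA exit channel and touches the mRNA upstream of the start codon (chromosome 10, 128624534 to 128626747, - strand), was at 372, 359.8 and 376 CPM alone and 916, 960.2 and 1041 CPM with eosinophils, a log2 change of 1.39 ± 0.04 (edgeR adjusted p = 6.0e-22). The large-subunit genes that more than doubled were Rpl22l1 (1.17), Rpl28 (1.16), Rpl15 (1.13), Rpl35 (1.10), Rpl7a (1.08), Rpl41 (1.04), Rpl10a (1.03) and Rpl31 (1.03), and the small-subunit paralog Rps27l (1.38) was also above 1. Rpl28 went from 459, 408 and 419 CPM to 945, 959 and 997 CPM, and Rpl15 from 206, 201 and 208 CPM to 442, 441 and 472 CPM, both without overlap. Rpl35, at the exit of the peptide tunnel, went from 223, 217 and 219.9 CPM to 458, 463 and 496 CPM. In each of these 3 genes the levels about doubled from a tight set of alone values, while an opposite-strand gene overlaps their exons, as given at the end. Genes near the middle of the order included Rpl8 (0.64), Rps29 (0.64) and Rpl32 (0.69).

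At the other end, Rps27, a zinc-finger protein of the small subunit, was the gene with the highest level per kilobase in ILC2s alone and was lower in the coculture. It lies on chromosome 3 from 90212522 to 90213651 (- strand). It stood at 664, 597 and 617 CPM alone and 454, 481 and 536 CPM with eosinophils. The groups did not overlap, and the log2 change was -0.36 ± 0.05 (edgeR adjusted p = 1.0e-07). Rpl37a lay at 625, 559 and 584 CPM alone and 593, 588 and 698 CPM with eosinophils (log2 change 0.08 ± 0.05, edgeR adjusted p = 0.15), and its sign turned to -0.08 under library totals. Rps14 (0.15 ± 0.04) and Rpl34 (0.19 ± 0.04) passed the test as higher by the smallest margins. Under library totals the Rps14 value became -0.01 and Rpl34 fell to 0.04, neither past the test.

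**Figure D1:**
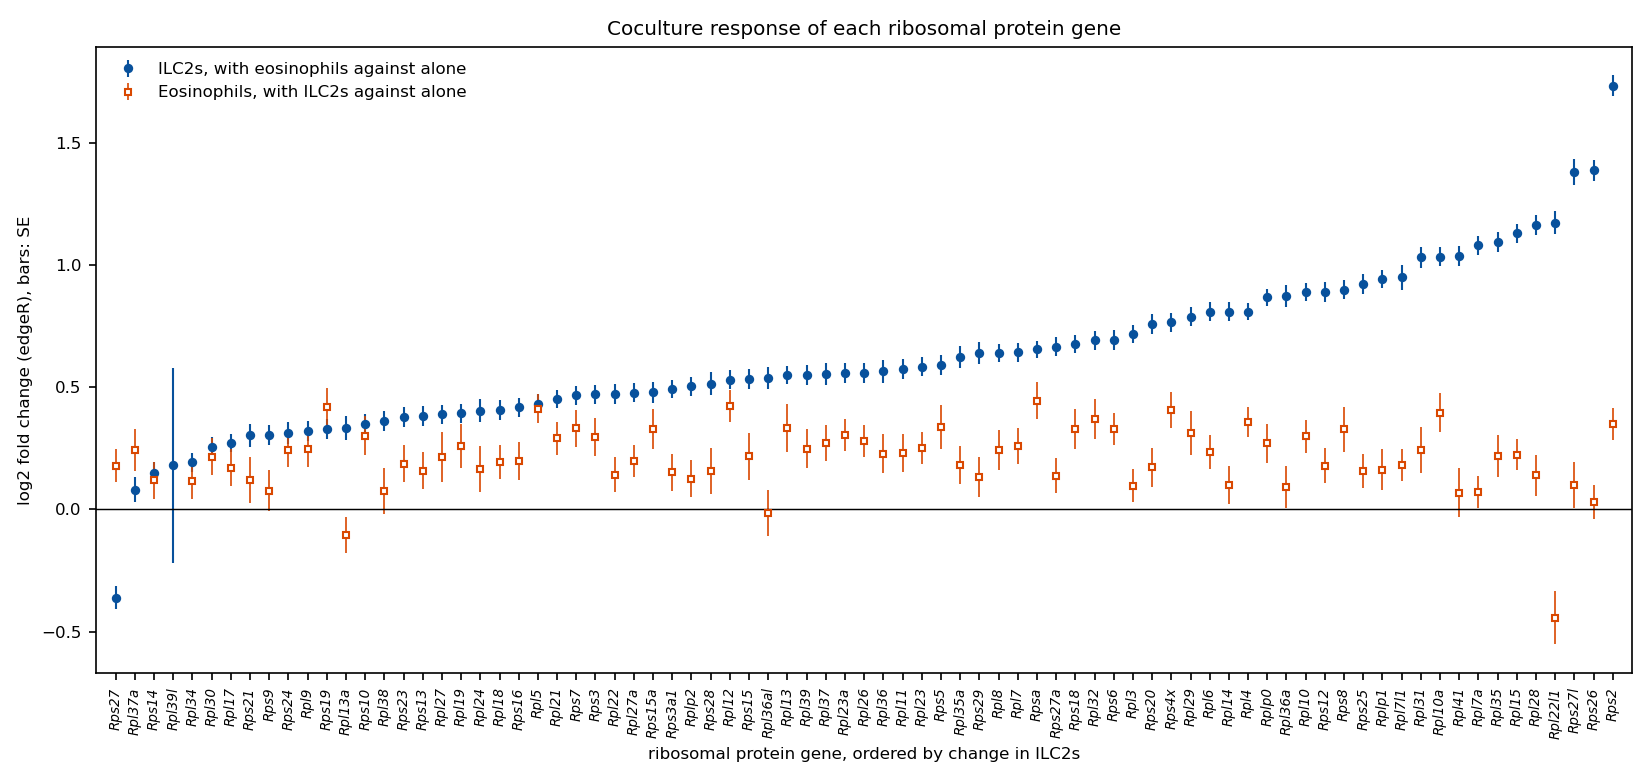
Log2 fold change of the ribosomal protein genes tested in ILC2s (a few are not shown), ordered by its change there (filled circles, ILC2s with eosinophils against alone; open squares, eosinophils with ILC2s against alone; bars are the SE of the edgeR fit). The ILC2 values climb from -0.36 for Rps27 to 1.73 for Rps2, whereas the eosinophil values shown stay between -0.44 and 0.45; Rpl39l has no eosinophil value.

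The transcript starts of the genes at the ends of this order are shown because the TOP tract lies there. Each 30-base window runs from 15 bases before the RefSeq start (GRCm38.p6) to 15 bases from the start on, and capitals mark a C followed by at least 4 pyrimidines that begins within 5 bases of the start. The RefSeq starts of Rps2, Rpl35 and Rps26 lie 1947, 493 and 241 bases inside the genes as GENCODE annotates them. Other starts of these genes are not shown. The first 4 genes rose most among those with a RefSeq window, Rps27 and Rpl37a did not rise, and Rps6 and Rpl35 are given for their longer tracts. Rps2 (chr17:24720048-24720077, + strand), Rps26 (chr10:128626492-128626521, - strand), Rps27l (chr9:66946071-66946100, + strand), Rpl22l1 (chr3:28805493-28805522, + strand), Rps27 (chr3:90213634-90213663, - strand), Rpl37a (chr1:72711245-72711274, + strand), Rps6 (chr4:86857353-86857382, - strand) and Rpl35 (chr2:39005117-39005146, - strand) read as follows.
Rps2: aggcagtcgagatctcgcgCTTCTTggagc
Rps26: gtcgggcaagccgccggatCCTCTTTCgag
Rps27l: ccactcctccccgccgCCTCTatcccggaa
Rpl22l1: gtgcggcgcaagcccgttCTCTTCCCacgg
Rps27: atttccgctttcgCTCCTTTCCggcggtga
Rpl37a: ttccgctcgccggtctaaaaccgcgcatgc
Rps6: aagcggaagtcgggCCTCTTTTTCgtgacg
Rpl35: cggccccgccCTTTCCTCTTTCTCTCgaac

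A tract was found in 28 of the 64 ribosomal protein genes with a RefSeq window (43.8%) and in 18.4% of all 27025 promoters searched in the same way. The medians with and without a tract lay close together: the 26 core genes with a tract had a median log2 change of 0.49 in ILC2s and the 31 without 0.55, and in eosinophils the medians were 0.20 and 0.24. Without a tract means only that none was found within 5 bases of a single RefSeq start. That start can lie far from the GENCODE start, by 575 bases in Rps25. In Rpl4 and Rpl13, counted as without, a pyrimidine run begins before the stretch searched. The split therefore cannot separate TOP mRNAs from others. Rps27 carries a tract of 9 bases and fell, while Rpl35 carries 16 marked bases and rose. In Rpl35 the run of pyrimidines begins before the stretch searched, so the marked part is not the whole run. In the 300-base windows (250 bases before the start to 50 after, both strands), GGGCGG was present in 60.9% of the ribosomal protein genes and 36% of all promoters, CCGGAAG in 39.1% and 9.17%, ATGGCGG in 15.6% and 4.19%, CACGTG in 7.81% and 7.19%, and TATAAA in 9.38% and 14.2%. Among the 57 core genes with a window, the median response in ILC2s was 0.54 with GGGCGG and 0.53 without. It was 0.57 with CCGGAAG (23 genes) and 0.48 without (34), and 0.57 with ATGGCGG (9) and 0.53 without (48). With CACGTG it was 0.39 (5 genes) and 0.54 without (52), and with TATAAA 0.87 (5) and 0.52 without (52). These differences were not tested. These matches are letters in a window and not shown to be bound sites.

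Both subunits and every functional site examined were represented among the rises. As 95.1% of all tested ribosomal protein genes rose, and 36.8% of all tested genes, these counts set no subunit or site apart. In ILC2s, 30 of 32 small-subunit genes rose with a median of 0.52, and 48 of 50 tested large-subunit genes rose with a median of 0.56. The stalk, which recruits the elongation factors, rose as a whole: Rplp0, its base, by 0.87 ± 0.03, Rplp1 by 0.95 ± 0.04 and Rplp2 by 0.50 ± 0.04. Rplp1, the most abundant of these genes per kilobase in the other 3 groups, went from 808, 761 and 771 CPM in ILC2s alone to 1467, 1501 and 1563 CPM with eosinophils. Rpl5 and Rpl11, which carry the 5S ribosomal RNA and can bind Mdm2 when free, rose by 0.43 ± 0.04 and 0.57 ± 0.04. At the mRNA entry channel Rps2 (1.73) stood far above Rps3 (0.47) and Rps9 (0.31), and at the exit channel Rps26 (1.39) stood above Rps28 (0.51) and Rps14 (0.15). Of the proteins that wall the peptide tunnel, Rpl4 rose by 0.81, Rpl39 by 0.55 and Rpl17 by 0.27, and the 5 at the tunnel exit (Rpl19, Rpl23a, Rpl26, Rpl31 and Rpl35) rose by 0.39 to 1.10. The X-linked genes Rpl10, Rpl36a, Rps4x and Rpl39 rose by 0.55 to 0.89. All 7 genes examined whose human counterparts are mutated in Diamond-Blackfan anaemia rose, from Rps24 (0.31) to Rps26 (1.39). Rps6, the substrate of S6 kinase, rose by 0.69 ± 0.04, from 587, 540.2 and 572 CPM to 902, 884 and 975 CPM, with no overlap.

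In eosinophils the shift on culture with ILC2s was smaller and the count was less certain. Of 82 tested genes, 38 rose, 2 fell (Rpl3l and Rpl22l1) and 42 did not pass the test, beside a background of 11.4% of 13109 genes higher and 13.5% lower. The groups did not overlap for 35 genes that were higher with ILC2s (background 19.1%) and 2 that were lower (background 19.8%). The median log2 change was 0.22, a 1.16-fold difference, beside 0.00 over all genes, and no ribosomal protein gene rose by more than 1.5-fold (background 3.2%), while Rpl3l fell by more than that (background 7.62%). All 30 genes above 0.25 stayed below 0.5. The number of rises depended on single libraries: it was 22 without replicate 1 and 59 without replicate 3 of the eosinophils alone, and 19 and 14 without replicates 1 and 3 of the eosinophils with ILC2s. The median stayed between 0.15 and 0.29 in these fits. Over all genes, library totals in place of TMM changed the split from 1493 higher and 1771 lower to 2114 and 1532, and gave 55 ribosomal protein genes higher.

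Rpsa, a small-subunit protein also known as the laminin receptor, had the largest rise in eosinophils. It was at 318, 291 and 362 CPM alone and 466, 413 and 469 CPM with ILC2s, a log2 change of 0.45 ± 0.08 (edgeR adjusted p = 0.00067). Rpl12 went from 138, 133 and 154 CPM to 194, 185 and 203 CPM (0.42 ± 0.07, edgeR adjusted p = 0.00028), and Rps19, the gene most often mutated in Diamond-Blackfan anaemia, from 118, 112 and 142 CPM to 177, 157 and 173 CPM (0.42 ± 0.08). Rpl5, at 195, 187 and 202 CPM alone and 259, 254 and 281 CPM with ILC2s (0.41 ± 0.06), and Rps4x, at 267, 247 and 304 CPM alone and 385, 342 and 378 CPM with ILC2s (0.41 ± 0.07), followed. For none of these 5 genes did the groups overlap. Rpl10a (0.40 ± 0.08), Rpl32 (0.37 ± 0.08) and Rpl4 (0.36 ± 0.06) were also among the larger rises. By role, 1 of the 3 stalk genes rose (Rplp0, 0.27 ± 0.08), Rpl5 and Rpl11 both rose, 3 of the 4 X-linked genes rose (Rpl10, Rps4x and Rpl39), and none of the 3 exit channel genes (Rps14, Rps26 and Rps28) passed the test. The calls of Rpl11 (edgeR adjusted p = 0.047, groups overlapping), Rpl39 and Rplp0 were lost under 6, 4 and 3 alternatives, the last 2 when single libraries were left out. Of the small-subunit genes 14 of 32 rose, with a median of 0.19, and of the large-subunit genes 24 of 50, with a median of 0.23. The share was 46.3% for all tested ribosomal protein genes and 11.4% over all genes. Of the strongest ILC2 responders, Rps26 was at 193, 181 and 206 CPM in eosinophils alone and 204, 184 and 216 CPM with ILC2s (0.03 ± 0.07, edgeR adjusted p = 0.81), and Rps2, at 249, 226 and 269.9 CPM alone and 333, 306 and 329 CPM with ILC2s, rose by 0.35 ± 0.07. Rpl13a, known from the GAIT complex that represses translation of inflammatory mRNAs, stood at -0.11 ± 0.07 and was not called (edgeR adjusted p = 0.34).

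**Figure D2:**
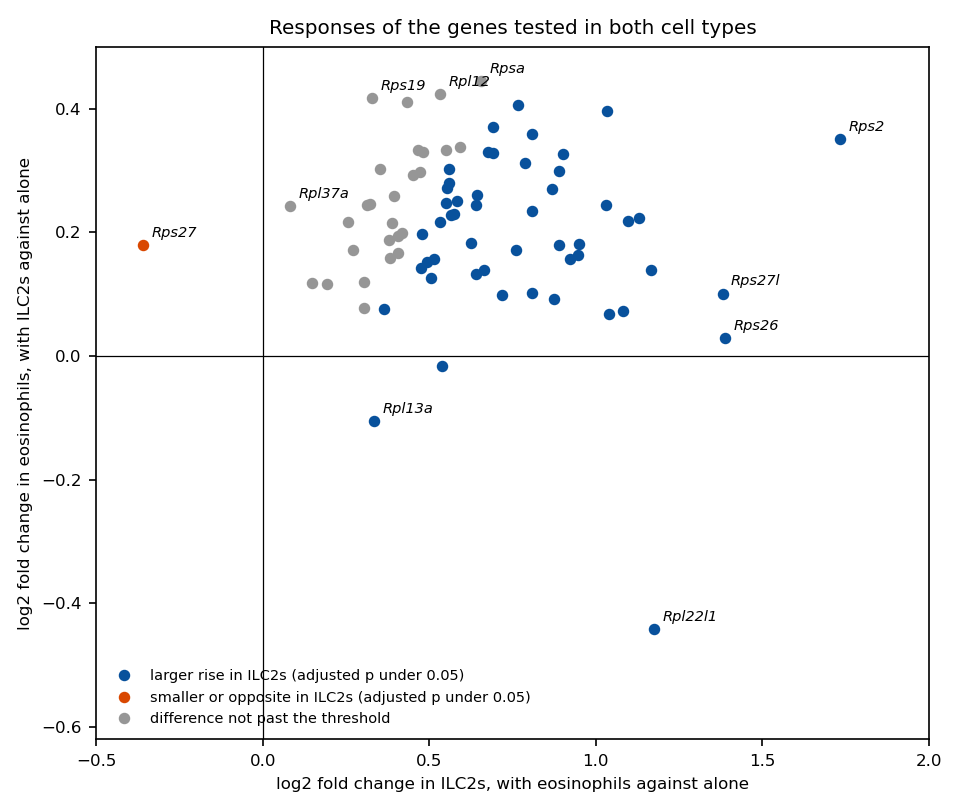
Log2 fold change in eosinophils (vertical) against that in ILC2s (horizontal) for each ribosomal protein gene tested in both cell types (a few are not shown), coloured by the test of the difference between the responses. Rps2, Rps26, Rps27l and Rpl22l1 lie far to the right with eosinophil values from -0.44 to 0.35, and Rps27 is the gene whose response was lower in ILC2s. Rpl3l and Rpl39l, tested in 1 cell type only, are not shown.

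The difference between the responses was tested directly over all 12 libraries. The ILC2 response was the larger for 51 of 83 genes and the smaller for Rps27 alone, and 31 did not pass the test (background 26.8% and 24.8% of 15745 genes). The median difference was 0.32 on the log2 scale. This result leans on the scaling: under library totals the median over all genes shifted by -0.19, the split over all genes went from 4215 larger and 3899 smaller to 3357 and 5112, and 30 ribosomal protein genes were larger, 6 smaller and their median difference was 0.13. Among genes that passed the test the greatest differences were those of Rpl22l1 (1.60 ± 0.11, edgeR adjusted p = 2.0e-11), Rps2 (1.36 ± 0.09), Rps26 (1.34 ± 0.09) and Rps27l (1.26 ± 0.12), and that of Rps27 was -0.56 ± 0.10 (edgeR adjusted p = 3.0e-05). These 5 kept their direction and passed the test under every alternative run, which covered scalings, tools, filters, the replicate block and each library left out. For Rpl5 the ILC2 response minus the eosinophil response was -0.00 ± 0.08 (edgeR adjusted p = 1.0). Across the 77 core genes the 2 responses, which come from separate libraries, had a Pearson r of 0.11 and a Spearman rho of 0.11. The points share transcript length and composition.

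Paralogs are described beside the core gene they resemble. Rpl22 and Rpl22l1 encode closely related RNA-binding proteins of the large subunit. In ILC2s, Rpl22l1 (chromosome 3, 28805436 to 28807424, + strand) went from 39.0, 38.1 and 39.1 CPM alone to 89.5, 86.5 and 87.9 CPM with eosinophils (1.17 ± 0.05), and Rpl22 from 346, 348 and 347 CPM to 466, 472 and 515 CPM (0.47 ± 0.04). In eosinophils, Rpl22l1 went the other way, from 21.7, 18.1 and 22.9 CPM to 16.6, 15.3 and 15.1 CPM, a log2 change of -0.44 ± 0.11 (edgeR adjusted p = 0.0089, and 0.0501 without replicate 3 of the eosinophils with ILC2s). Rpl22 in eosinophils was at 149, 129 and 150.2 CPM alone and 163, 148 and 171 CPM with ILC2s (0.14 ± 0.07, not past the test). The share of Rpl22l1 in the counts of the pair thus went from 10.0% ± 0.145 to 15.4% ± 0.764 in ILC2s and from 12.7% ± 0.479 to 8.91% ± 0.707 in eosinophils (SD, n = 3). Neither pair of groups overlapped, and the exact two-sided permutation p was 0.1 in each, the smallest that 3 against 3 libraries allow.

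Rps27 and Rps27l diverged within ILC2s. Rps27l, a paralog known as a p53 target (chromosome 9, 66946086 to 66949516, + strand), was at 40.1, 37.6 and 39.0 CPM alone and 97.5, 97.2 and 111 CPM with eosinophils (1.38 ± 0.05, edgeR adjusted p = 2.4e-19), while Rps27 fell. Its share of the pair went from 5.85% ± 0.140 to 17.2% ± 0.423 (SD, n = 3), without overlap (exact permutation p = 0.1). In eosinophils the share was 16.3% ± 1.56 alone and 15.6% ± 0.710 with ILC2s, with overlapping groups (exact permutation p = 0.6). The share of Rpl36al in its pair with Rpl36a was 37.5% ± 0.834 and 32.3% ± 0.656 in ILC2s (exact permutation p = 0.1) and 55.4% ± 1.76 and 53.7% ± 2.34 in eosinophils (exact permutation p = 0.6). Both genes of that pair rose in ILC2s, Rpl36a by 0.88 ± 0.05 and Rpl36al by 0.54 ± 0.04. Rpl7l1, a nucleolar relative of Rpl7 with a role in ribosome assembly, rose by 0.95 ± 0.05 in ILC2s beside 0.64 ± 0.04 for Rpl7. The testis-type Rpl39l had 41 counts over the 3 ILC2 libraries alone and 46 with eosinophils, at most 0.314% of its pair with Rpl39 in any library, and its shares did not differ by the exact permutation test.

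**Figure D3:**
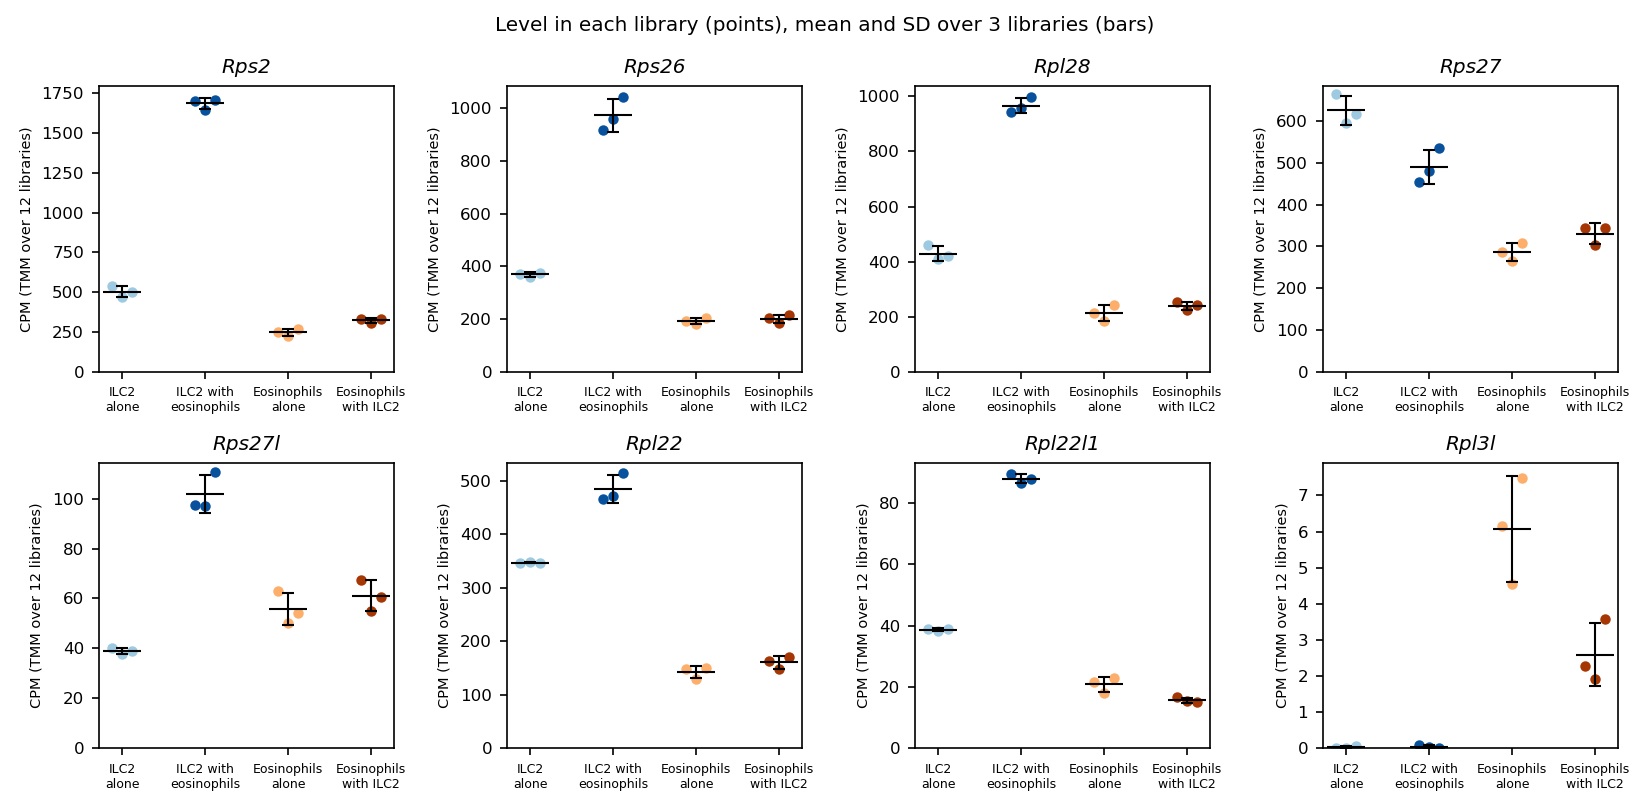
CPM of 8 ribosomal protein genes in each library (points), with the mean and SD over 3 libraries (bars) and each axis starting at 0. Rps2, Rps26, Rps27l and Rpl22l1 are higher in ILC2s with eosinophils than in every other group, Rps27 is highest in ILC2s alone, Rpl28 is higher in ILC2s with eosinophils and overlaps between the eosinophil groups, and Rpl3l is seen in eosinophils.

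The stretches just before the RefSeq starts of the diverging pairs are given for comparison: 120 bases each for Rps27 (chr3:90213649-90213768, - strand), Rps27l (chr9:66945966-66946085, + strand), Rpl22 (chr4:152325606-152325725, + strand) and Rpl22l1 (chr3:28805388-28805507, + strand). Capitals mark GGGCGG in Rps27l and, in Rpl22l1, TATAAA on either strand, where the matches overlap. None of the motifs searched was found in the Rps27 and Rpl22 stretches.
Rps27: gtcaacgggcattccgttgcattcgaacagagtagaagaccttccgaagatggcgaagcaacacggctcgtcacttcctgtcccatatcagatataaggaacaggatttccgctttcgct
Rps27l: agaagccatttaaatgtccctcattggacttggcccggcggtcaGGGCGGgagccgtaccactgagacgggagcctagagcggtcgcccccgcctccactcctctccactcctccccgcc
Rpl22: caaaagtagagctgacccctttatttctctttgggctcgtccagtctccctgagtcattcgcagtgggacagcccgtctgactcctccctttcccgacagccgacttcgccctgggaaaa
Rpl22l1: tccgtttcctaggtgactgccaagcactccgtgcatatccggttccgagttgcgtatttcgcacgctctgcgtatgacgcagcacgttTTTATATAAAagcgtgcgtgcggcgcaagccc

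Ribosomal protein genes took a larger share of the counts in ILC2s than in eosinophils. The 84 genes took 5.34% ± 0.138 of all counts in ILC2s alone, 7.33% ± 0.268 with eosinophils, 1.46% ± 0.133 in eosinophils alone and 1.77% ± 0.113 with ILC2s (SD, n = 3). Each of the 4 comparisons between these groups was without overlap (exact permutation p = 0.1, the smallest possible). Between the cell types cultured alone, 79 of 83 genes were higher in ILC2s, Rpl3l, Rpl7l1 and Rps27l were lower, and Rps27a did not pass the test (background 40.8% of 14525 genes higher and 39.9% lower). The median log2 difference was 1.26, or 2.40-fold, and 74 genes were over 1.5-fold higher (background 32.3%). In coculture 81 were higher, Rpl3l was lower and Rpl7l1 did not pass the test (background 43.6% and 40.5% of 14634), with a median of 1.61 and 79 genes over 1.5-fold higher (background 34.5%). The Rpl7l1 difference in coculture was 0.02, and it passed the test at 0.42 under library totals and 0.22 under upper quartile scaling. Scaling bears on the size of both medians: under library totals the median over all genes shifted by 0.57 and 0.40, and the ribosomal protein genes had medians of 1.83 and 2.00. Over all genes the split went from 5923 higher and 5796 lower to 8587 and 3664 for cells alone, and from 6374 and 5922 to 8177 and 4247 in coculture.

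Rpl3, whose protein reaches toward the peptidyl transferase centre, had the largest difference among genes higher in ILC2s. It was at 1089, 986 and 1046 CPM in ILC2s alone and 225, 197 and 236 CPM in eosinophils alone (2.25 ± 0.07), and at 1705, 1718 and 1740.0 CPM against 249, 227 and 242 CPM in coculture (2.84 ± 0.05, edgeR adjusted p = 7.5e-29). Rps18 (2.19), Rpl12 (2.15) and Rps19 (2.03) came next among cells alone, and Rps18 (2.5), Rpl22l1 (2.48) and Rpl10a (2.42) in coculture. At the low end, Rps27a, which is made as a fusion to ubiquitin, was at 352, 344 and 360.4 CPM in ILC2s alone and 371, 340.5 and 426 CPM in eosinophils alone (-0.10 ± 0.07, edgeR adjusted p = 0.21, and 0.47 under library totals). Rps25 and Rps29 were 0.16 and 0.19 higher in ILC2s. The Rps25 call between cells alone was lost without replicate 1 of the ILC2s alone (edgeR adjusted p = 0.057). It was also lost without replicate 2 of the eosinophils alone (edgeR adjusted p = 0.071). Rps27l was lower in ILC2s alone (-0.51 ± 0.08; 0.06 under library totals) and higher in cocultured ILC2s (0.73 ± 0.07). Rpl7l1 was lower in ILC2s alone (-0.71 ± 0.07; -0.14 and not past the test under library totals), at 44.2, 41.4 and 40.9 CPM against 73.1, 65.4 and 68.8 CPM.

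**Figure D4:**
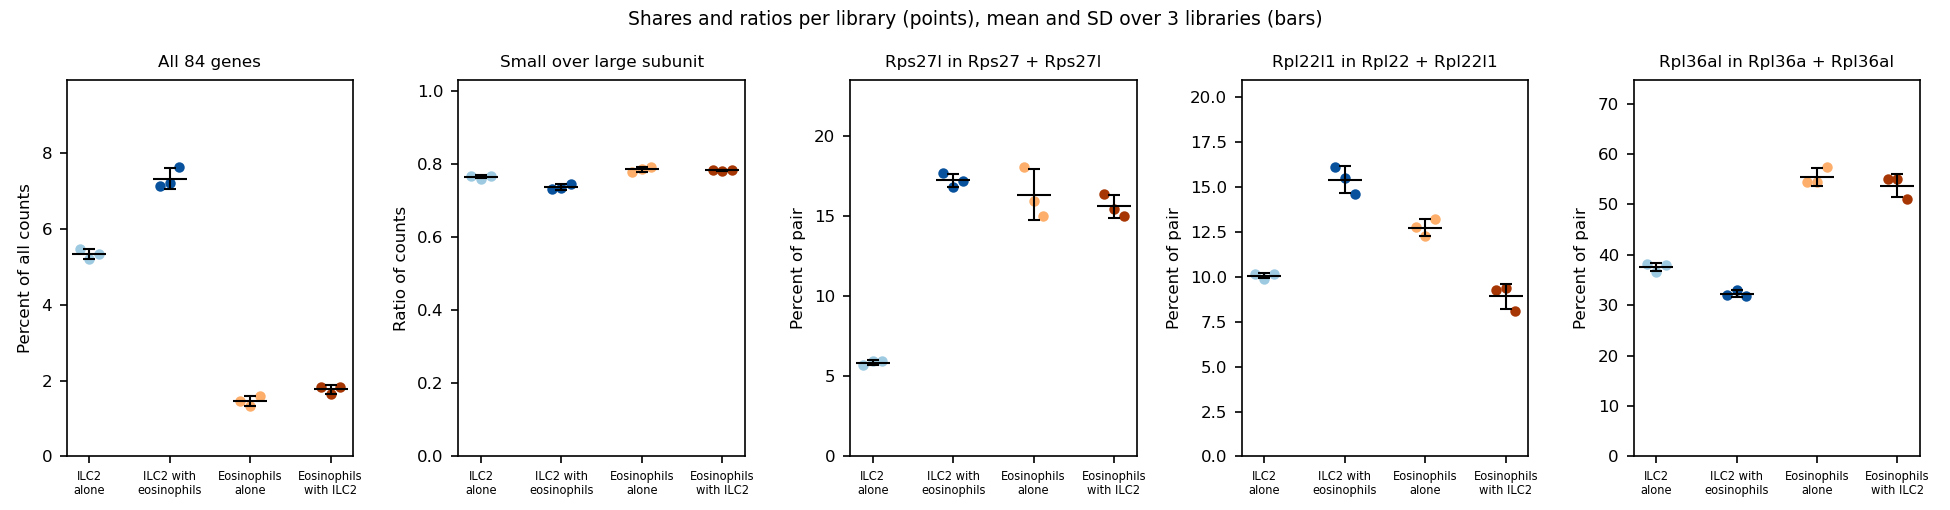
Share of all counts taken by the 84 genes, ratio of small-subunit to large-subunit counts, and share of 3 paralogs in the counts of their pair, per library (points) with mean and SD (bars) and axes starting at 0. The share of all counts is 7.33% in ILC2s with eosinophils and 1.46% in eosinophils alone, and the subunit ratio stays between 0.732 and 0.792 in every library.

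The subunits were set against each other within each library. The ratio of small-subunit to large-subunit counts was 0.765 ± 0.00437 in ILC2s alone, 0.737 ± 0.00742 with eosinophils, 0.785 ± 0.00689 in eosinophils alone and 0.782 ± 0.00166 with ILC2s (SD, n = 3). The ILC2 groups did not overlap (exact permutation p = 0.1) and the eosinophil groups did (exact permutation p = 0.6). Levels of single genes per kilobase of the principal transcript ranged more widely. In ILC2s alone the core genes had a median of 593 CPM per kilobase and ran from 91.5 for Rps15a, whose annotated transcript is long, to 1815 for Rps27. In ILC2s with eosinophils they ran from 128 to 3026 (Rplp1), in eosinophils alone from 25.6 to 865 (Rplp1), and in eosinophils with ILC2s from 32.8 to 987 (Rplp1). The ratio of the 90th to the 10th percentile was 4.24, 3.24, 4.42 and 4.18 in the 4 groups in that order.

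Rpl3l was the only gene of the set called lower in ILC2s than in eosinophils both alone and in coculture. This paralog of Rpl3 is known from striated muscle and lies on chromosome 17 from 24727820 to 24736143 (mm10, + strand). Eosinophils alone had 92, 74 and 121 counts and eosinophils with ILC2s 37, 34 and 63, without overlap, or 6.07 ± 1.47 and 2.59 ± 0.877 CPM (SD, n = 3). The log2 change was -1.25 ± 0.26 (edgeR adjusted p = 0.0032). ILC2s alone had 2 counts over 3 libraries and ILC2s with eosinophils 3, so the ratio of eosinophils to ILC2s was 217 (exact binomial 95% interval of counting error 59.6 to 1803) for cells alone and 61.0 (20.4 to 299.6) in coculture. The next gene on the same strand, Msrb1, starts 498 bases after the end of Rpl3l and stood at 641 ± 81.0 CPM in eosinophils alone and 736 ± 52.3 CPM with ILC2s (SD, n = 3). Its part in the Rpl3l counts was not tested.

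The rest of the translation machinery was examined through lists of related genes, whose counts are to be read against the shares over all genes (36.8% higher and 35.6% lower in ILC2s, 11.4% and 13.5% in eosinophils). Of ribosome proteins outside the symbol rule, in ILC2s Rack1 rose by 0.66 ± 0.04 and Fau by 0.14 ± 0.04 (-0.01 under library totals), and in eosinophils Rack1 rose by 0.45 ± 0.07. All 7 elongation factor genes rose in ILC2s, led by Eif5a (1.58) and Eef1g (1.33), with Eef2 the least (0.13, and -0.02 under library totals). In eosinophils 3 of them rose, Eef2 the most (0.42). Of the 13 subunits of eIF3, which holds the small subunit at the mRNA, 10 rose and Eif3f fell (-0.18) in ILC2s, whereas in eosinophils 6 rose, Eif3f among them (0.39). Among 16 other initiation factors 13 rose and 2 fell in ILC2s, with Eif4e, the cap-binding protein, at 1.48 and Eif4a1, the helicase, at 1.32, while in eosinophils Eif4b rose (0.19) and 3 fell, Eif4a1 among them (-0.21). The eosinophil calls of Eif4b and Eif4a1 were each lost under 4 alternatives, that of Eif4a1 under library totals among them (-0.15, edgeR adjusted p = 0.060). Of 8 other TOP transcripts 7 rose in ILC2s, Hnrnpa1 by 2.24 ± 0.04 and Npm1 by 1.00 ± 0.04, and in eosinophils Tpt1 (lost without replicate 1 or 3 of the eosinophils with ILC2s) and Pabpc1 rose while Hnrnpa1 and Vim fell.

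For genes of mTOR signalling and TOP control, the ILC2 counts lay near the shares over all genes. Of 14, 4 rose in ILC2s (Myc 1.36, Eif4ebp1 0.67, Mlst8 0.40 and Larp1 0.21) and 5 fell, among them Deptor, an inhibitor of mTOR (-2.39 ± 0.16), and Tsc1 (-0.65) and Tsc2 (-0.33), which restrain its activator Rheb. In eosinophils Deptor (1.12 ± 0.22) and Eif4ebp2 (0.42) rose and Eif4ebp1 fell (-0.62). Of the chaperones that escort ribosomal proteins, 4 of 6 tested rose in ILC2s, with Grwd1, which escorts Rpl3, at 1.56 ± 0.11, and 2 rose in eosinophils. Of 9 tested rescue and stalling genes 6 rose and 2 fell in ILC2s, and 3 rose in eosinophils, Abce1, the recycling ATPase, rising in both (0.97 and 0.38). Of 4 dormancy factors, Serbp1 (0.61), Ccdc124 (0.65) and Ifrd2 (1.5) rose and Habp4 fell (-0.98) in ILC2s, and none passed the test in eosinophils. The mitochondrial ribosomal proteins, encoded by 78 other nuclear genes, were counted in the same way: in ILC2s 61 rose and 5 fell (median 0.57), while in eosinophils 2 rose and 5 fell (median 0.01). By the test of the difference, the ILC2 response was the larger for 49 of the 78 and the smaller for 3 (median difference 0.51; background 26.8% and 24.8%).

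**Figure D5:**
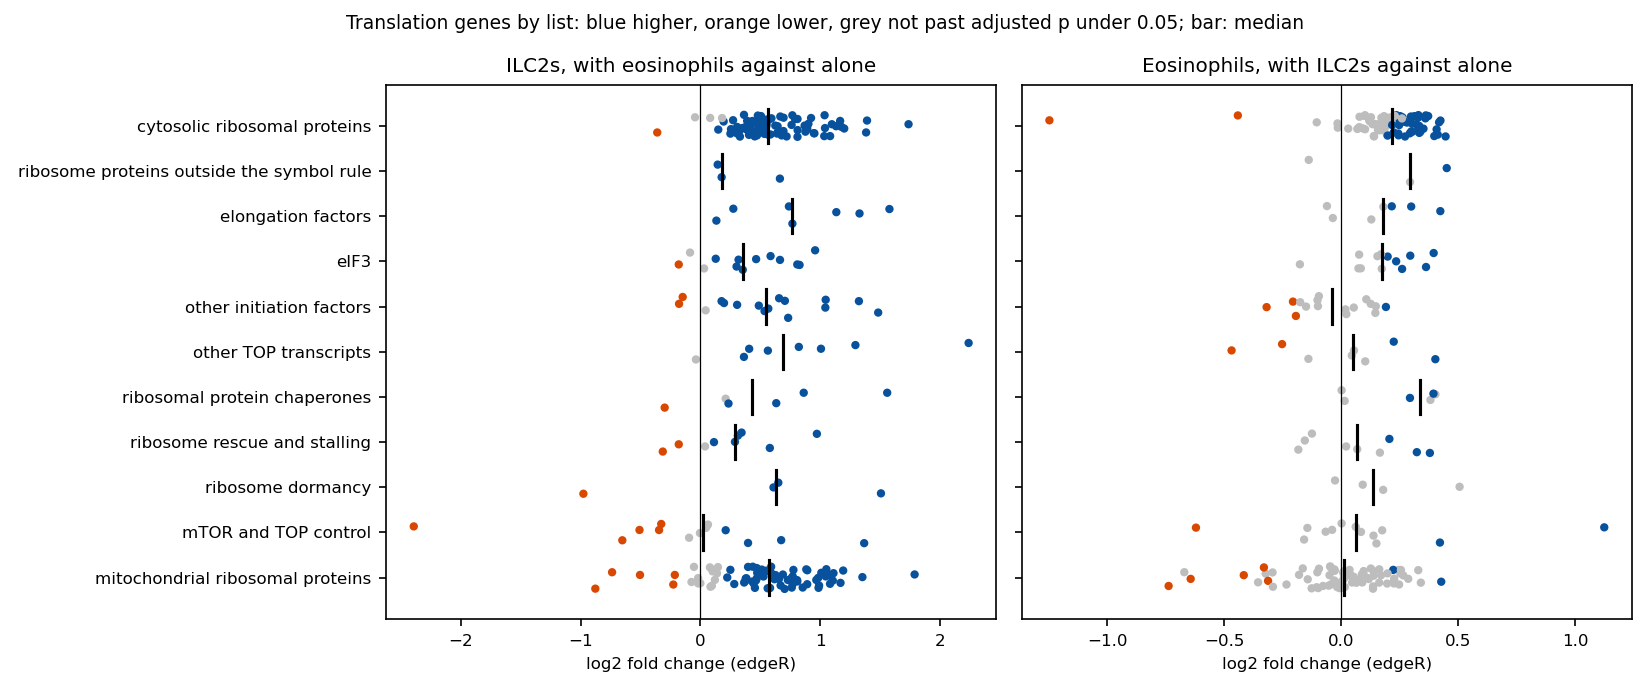
Log2 fold change on coculture for the ribosomal protein genes and 10 lists of related genes, ILC2s on the left and eosinophils on the right, with each gene a point (blue higher, orange lower, grey not past an adjusted p of 0.05) and a bar at the median of the list. The cytosolic and mitochondrial lists lie at 0.56 and 0.57 in ILC2s and at 0.22 and 0.01 in eosinophils.

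The responses had low rank correlations with the gene properties examined. Across the 77 core genes, the change in ILC2s had a Spearman rho of 0.10 with transcript length, -0.02 with GC content and 0.01 with the number of processed copies annotated in the genome, and in eosinophils the values were 0.24, -0.08 and 0.21 (genes are not independent replicates). Such copies matter for counting, since reads of a gene and its copy can be exchanged: 278 copies of 59 of the genes held 0.503% to 0.655% as many counts as the genes themselves. Rps2 has 10 copies, which held 0.491% of its counts in ILC2s alone and 0.463% with eosinophils. Exons of 37 of the genes overlap those of another annotated gene, and for 12 (Rpl5, Rpl12, Rpl15, Rpl18, Rpl23a, Rpl28, Rpl31, Rpl32, Rpl35, Rps18, Rps25 and Rps28) an opposite-strand coding gene reached over 5% of their level in some group. The highest were Tbc1d8, at 280% of Rpl31 (398 against 142 CPM in eosinophils alone, but under 1 CPM in ILC2s), Vps52, at 54.6% of Rps18, Arpc5l, at 41.2% of Rpl35, and Lrsam1, at 36.2% of Rpl12. The exon stretches shared with these neighbours ran from 53 bases (Rpl32 with Cand2) to 953 bases (Rpl5 with Fam69a). As no strand setting is given in the sources used here, reads in these stretches cannot be told apart. The values given above for the 12 genes are uncertain to an extent that was not tested. Effects of overlap on the remaining overlapped genes were not tested either. Among them, Rpl13a shares 621 exon bases with the coding gene Gm45713 and Rpl24 shares 484 with Gm28037. Both neighbours lie on the same strand as the gene and stood at 0 CPM in every group.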

How the data were processed

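The authors deposited raw read counts per gene for 12 libraries in a single table of whole numbers that were not normalized. STAR 2.5.2b, Subread 1.5.2, featureCounts, Trimmomatic 0.36, bcl2fastq 2.17 and build mm10 appear in the submitters' processing notes. Not given in the sources used here are the annotation release, strand setting and handling of multi-mapping reads. Symbols, positions and lengths were taken from GENCODE M21 by Ensembl identifier, and promoters from RefSeq. Groups came from the labels. The ribosomal protein genes and all other lists were chosen with earlier results of these data known. Results for some genes are not reported here.

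Counts were fitted over all genes passing filterByExpr with edgeR 4.0.16 (R 4.3.3), TMM scaling, the quasi-likelihood F test without covariates, and Benjamini-Hochberg adjustment over all genes tested, called at 0.05. Two-group comparisons used 6 libraries and the difference of responses all 12. SE is the log2 fold change divided by the square root of F. Genes named were the 5 highest and 5 lowest per comparison with at least 1 CPM, the paralogs with their partners, the stalk and a set of known functions, and the choice of any other gene came after seeing its values. For shares, ratios and spreads an exact permutation test (two-sided) was used, whose smallest p is 0.1. Intervals cover counting error only. On simulated counts with 1.5-fold and 2-fold changes, the ILC2 comparison (14177 genes) recovered 79.4% and 94.7% of the changed genes, and the eosinophil comparison (12918 genes) 69.2% and 91.9%. Far fewer genes were changed there than were called in the real fits, and all genes shared a single spread. No change under 1.5-fold was simulated, so recovery of smaller rises, such as those in eosinophils, is not known. Alternatives were other scalings and filters, DESeq2 1.42.0, limma-voom (limma 3.58.1), a replicate block, added counts of processed copies, and each library left out.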

Additional observations from a re-analysis of the deposited data

Results flagged for a closer look

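By the edgeR test of the difference itself, the ILC2 coculture response was the larger for 51 of 83 tested ribosomal protein genes. Over all genes tested, 26.8% were larger and 24.8% smaller. On the log2 scale, the ILC2 response minus the eosinophil response was 1.60 for Rpl22l1, 1.36 for Rps2, 1.34 for Rps26, 1.26 for Rps27l, 0.75 for Rpl7l1 and 0.53 for Rpl36al. Among the partners of the paralogs it was 0.76 for Rpl36a, 0.60 for Rpl3, 0.57 for Rpl10, 0.36 for Rpl7, 0.34 for Rps4x, 0.31 for Rpl22 and 0.28 for Rpl39. In the stalk it was 0.76 for Rplp1, 0.58 for Rplp0 and 0.36 for Rplp2. Among the other genes of known function it was 0.62 for Rpl10a, 0.42 for Rpl13a, 0.34 for Rps6, 0.32 for Rpl11 and 0.27 for Rpl38. The Rpl38 difference sat at the threshold (edgeR adjusted p = 0.049) and was lost under 12 of the alternatives. Under library totals the differences of Rpl7, Rpl22, Rpl39, Rps4x, Rplp2, Rps6, Rpl11 and Rpl13a also lost their call, with edgeR adjusted p from 0.055 (Rpl13a) to 0.42 (Rpl39), and Rpl39 lost it under 4 alternatives in all. Rps27 was the only gene with a smaller ILC2 response, at -0.56. Under library totals the ILC2 response was larger for 30 genes and smaller for 6. Rpl5, Rps19 and Rpl37a were among those 6.

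For 2 measures, the libraries moved in opposite directions in the 2 cell types, and the difference was not tested. The share of Rpl22l1 in its pair with Rpl22 differed by 5.35 percentage points between ILC2s with eosinophils and alone, and by -3.82 points between eosinophils with ILC2s and alone. The spread among the core genes (SD of log2 counts per kilobase of exon) was 0.0122 larger in ILC2s and smaller in eosinophils with the partner cell (a difference of -0.0208), and both signs turned under another measure of spread.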

How the results depend on the processing

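In all, 4488 values were recomputed under alternatives. Of the values of single genes, 3854 stayed on their side of the threshold, 78 lost and 38 gained a call, and 32 changed sign. Of the counts, medians and per-library values, 450 stayed, 29 moved and 7 changed sign. The cause was not tested.

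With library totals, the ILC2 comparison had 2 genes lower, a median of 0.40, Rpl37a at -0.076, Rps14 at -0.0082, Fau at -0.013 and Eef2 at -0.024. In eosinophils Rpl36al became 0.041 and Serbp1 0.028. Between cells alone 1 gene was lower, the median was 1.83, Rps27l 0.057 and Rps27a 0.47, and in coculture the median was 2.00. The difference of responses had 30 larger, 6 smaller, a median of 0.13, Rpsa at -0.0025 and Rps3 at -0.037. Upper quartile scaling gave 2 lower in ILC2s, medians of 1.49 and 1.80 between cell types, and 0.14 for Rps27a. With all 12 libraries in the fit, Rpl36al and Serbp1 in eosinophils were 0.012 and 0.0017. The Rpl5 difference was 0.0037 with TMM factors set without the ribosomal protein genes and 0.0049 with a minimum of 1 CPM.

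The labels do not say what a replicate number stands for. Same-numbered eosinophil libraries had correlations of their deviations of 0.035, 0.28 and 0.082. However, replicate 1 of the coculture correlated best with replicate 3 of the eosinophils alone (0.18). In the other comparisons same-numbered pairs lay between -0.04 and 0.05. The libraries were therefore not treated as paired. With the replicate block, 64 genes were higher in eosinophils in place of 38, Rplp1, Rplp2, Rpl22, Rps27 and Rpl7l1 among the calls gained.

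Per kilobase of exon, the subunit ratio differed by -0.0542 in ILC2s, -0.0123 in eosinophils, -0.0379 between cells alone and -0.0798 in coculture. The difference in share between cocultured cell types was 5.78 points over protein-coding counts and 5.81 without the 10 most counted other genes. The spread differed by -0.0424, 0.0095, -0.0547 and -0.107 as a median absolute deviation and, in an alternative chosen after seeing the data (principal transcript length), by -0.0312 in ILC2s, -0.0904 between cells alone and -0.102 in coculture.

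Leaving out each library gave 14 to 59 genes higher and 1 to 3 lower in eosinophils, medians of 1.14 to 1.32 between cells alone, and 1 to 4 genes with a smaller ILC2 response (4 without replicate 3 of the eosinophils alone). Signs changed for Rpl39l (-0.11 to 0.36) and Rpl37a (-0.00058 to 0.13) in ILC2s, for Rps26 (-0.023 to 0.094), Rpl38 (-0.018 to 0.19), Rpl36al (-0.11 to 0.093), Serbp1 (-0.064 to 0.0063), the subunit ratio (-0.0064 to 0.00049) and the Rps27l share (-1.40 to 0.124 points) in eosinophils, for Rpl7l1 in coculture (-0.0080 to 0.063), for the difference of Rpl5 (-0.034 to 0.044), and for the Rpl39l share between cells alone (-0.104 to 0.0162 points) and in coculture (-0.0152 to 0.0831 points).

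Depth did not limit most of these genes, while Rpl39l and Rpl3l rest on few counts. Absolute RNA per cell was not measured.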

Other observations

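Host genes of small nucleolar RNAs encode no ribosomal protein, and some of their spliced RNAs carry TOP tracts, not examined here gene by gene. These host genes were looked at after other values had been seen. Of 13 tested in ILC2s (background 36.8% higher and 35.6% lower), 6 were higher with eosinophils: Snhg5 by 1.31 ± 0.08, Snhg1 by 1.17 ± 0.06, Snhg6 by 1.17 ± 0.10, Snhg3 by 0.85 ± 0.18, Snhg8 by 0.62 ± 0.08 and Gas5 by 0.44 ± 0.04 on the log2 scale (SE). Snhg14 (-1.05), Snhg20 (-0.75) and Snhg17 (-0.43) were lower. Of 12 tested in eosinophils none was higher with ILC2s, and Snhg8 (-0.63 ± 0.17), Snhg1 (-0.60 ± 0.15) and Snhg5 (-0.45 ± 0.13) were lower (edgeR, adjusted p under 0.05; background 11.4% higher and 13.5% lower). The eosinophil calls of Snhg5 and Snhg8 were lost under 4 and 2 alternatives.

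The extremes of the mitochondrial ribosomal protein genes were also seen after the fact. In ILC2s with eosinophils, Mrps28 (1.79 ± 0.14), Mrpl54 (1.35 ± 0.09) and Mrpl12 (1.19 ± 0.07) rose most and Mrps5 fell most (-0.88 ± 0.06). Mrpl54 went the other way in eosinophils with ILC2s (-0.74 ± 0.13, edgeR adjusted p = 0.0011).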
